A study of Homo sapiens with 12 samples.

Results

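The cyclin-dependent kinase (CDK) inhibitors were followed in Ls174T cells, an established human colorectal carcinoma line, after Wnt signalling was interrupted in either of 2 ways. The genes were those of both inhibitor families, CDKN1A, CDKN1B and CDKN1C (the CIP/KIP family) and CDKN2A, CDKN2B, CDKN2C and CDKN2D (the INK4 family). A probe set, the group of array probes summarised as 1 value, was taken when the array's annotation paired it with exactly 1 gene symbol and that symbol was one of these 7. This gave 14 of the 54675 probe sets on the array, for 6 of the 7 genes. No probe set met the rule for CDKN2C, which was not analysed here.

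RNA of 12 samples was hybridised to Affymetrix U133 Plus 2.0 arrays, with 3 arrays in each of 4 groups. The induced shRNA group was Ls174T-pTER-β-catenin, a derivative with a doxycycline-inducible short hairpin RNA against β-catenin, after 72 h of doxycycline. The uninduced shRNA group was the same derivative without doxycycline, also listed at 72 h. The induced dnTcf4 group was Ls174T-L8, a derivative in which doxycycline switches on a dominant-negative form of Tcf4, after 24 h of doxycycline. The uninduced dnTcf4 group was that derivative without doxycycline, also listed at 24 h. Derivative, construct and hours differ together between the lines, and the hours differ between their uninduced groups too. None of these can be told apart from the others here. Doxycycline itself differs together with induction, so it cannot be told apart from the construct. The labels name neither clones nor cultures, so it is not known if a derivative is 1 clone or if each array had its own culture, and p-values measure the spread between these arrays, which may be technical.

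CDK inhibitors bind CDKs or their cyclin complexes and hold back entry into the cell cycle. CIP/KIP proteins bind cyclin-CDK complexes broadly, while INK4 proteins bind CDK4 and CDK6 and block their pairing with D-type cyclins, which keeps the retinoblastoma protein active against E2F transcription factors. In the intestine Wnt signalling, through β-catenin and TCF factors, sustains proliferation of crypt cells, and MYC, a Wnt target, is known to repress CDKN1A and CDKN2B.

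The promoters of CDKN1A and CDKN2B are printed because these 2 genes had the largest fold changes among the inhibitors. They are RefSeq windows on GRCh38.p14, from 250 bases before to 50 bases after the gene's start, written 5′ to 3′ on the gene's strand. Capitals mark the SP1 box GGGCGG on either strand (CCGCCC where it lies on the other strand). CDKN1A lies at chr6:36678464-36678763 on the plus strand and CDKN2B at chr9:22009256-22009555 on the minus strand.
CDKN1A: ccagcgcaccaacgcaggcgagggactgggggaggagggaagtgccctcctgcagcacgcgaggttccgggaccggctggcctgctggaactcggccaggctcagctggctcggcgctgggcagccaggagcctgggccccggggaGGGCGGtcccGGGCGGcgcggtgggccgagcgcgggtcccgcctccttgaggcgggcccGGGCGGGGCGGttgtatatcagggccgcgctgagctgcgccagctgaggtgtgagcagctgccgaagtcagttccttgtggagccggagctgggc
CDKN2B: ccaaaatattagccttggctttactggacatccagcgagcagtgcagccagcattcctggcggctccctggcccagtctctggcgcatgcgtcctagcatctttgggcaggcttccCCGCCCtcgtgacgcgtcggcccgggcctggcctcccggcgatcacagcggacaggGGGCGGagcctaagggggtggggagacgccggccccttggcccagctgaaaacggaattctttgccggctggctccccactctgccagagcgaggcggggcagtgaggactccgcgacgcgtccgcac

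The CDKN1A window held 4 SP1 boxes, beginning at -104, -94, -45 and -40 from the start, of which the last pair share 1 base. The CDKN2B window held 2, at -134 and -78. Windows were present for 5 of the inhibitor genes, 6 in all because CDKN2A has one for each of 2 start sites. The SP1 box was found in 5 of these 6 windows and in 45% of all 35116 promoters of the same length. The TCF/LEF core ATCAAAG and the E-box CACGTG, searched on both strands, were found in 0 of 6 windows, against 2.62% and 7.26% of all promoters. These are matches of letters within the windows and were not tested as sites.

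Values are MAS5 signals in arbitrary units on a linear scale, which the authors scaled to a common level on every array. The median probe set had a signal of 10.2 over the arrays, values under 1 were set to 1, and changes are differences of mean log2 signals with a standard error (SE). Replicate arrays correlated at 0.958 to 0.969 in log2 signal over the probe sets at or above the median brightness. The gene the shRNA targets and the gene for Tcf4 had probe sets that differed in the labelled direction. CTNNB1, which encodes β-catenin, had in its brightest probe set a mean signal of 156 ± 21 in induced shRNA cells and 3784 ± 195 in uninduced shRNA cells (SD, n = 3 each), and TCF7L2 212762_s_at, a probe set of the gene for Tcf4, had 3128 ± 709 in induced dnTcf4 cells and 408 ± 21 in uninduced dnTcf4 cells (SD, n = 3 each). The brightest probe set of TCF7L2, 212761_at, rose in both lines, by 1.67-fold with the shRNA (limma adjusted p = 4.45e-05) and by 1.65-fold with dnTcf4 (5.98e-05). EPCAM, an epithelial surface protein, had mean signals between 4199 and 4634 in the 4 groups. Arrays measure bulk RNA, so fewer cells with a transcript and less transcript per cell cannot be told apart.

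CDKN2B rose in both inductions, CDKN1A and CDKN2D rose with dnTcf4, CDKN1C fell with the shRNA, and CDKN1B rose by a small margin with the shRNA. With the shRNA 3 of the 14 probe sets rose and 2 fell (limma, Benjamini-Hochberg adjusted p under 0.05 over all 54613 probe sets tested), against a background of 11.1% of all probe sets called, 5.33% higher and 5.76% lower, and 4 and 5 lay under an unadjusted p of 0.05. With dnTcf4 3 rose and 0 fell by the same limma test, against 11.4% of all called (5.34% higher and 6.06% lower), and 3 and 1 lay under an unadjusted p of 0.05. Brighter probe sets are called more often: 9 of the 14 lay at or above the median brightness, of which 4 were called with the shRNA and 3 with dnTcf4, against 21.2% and 22% of all probe sets that bright. The 14 are not independent, because CDKN1C, CDKN2A, CDKN2B and CDKN2D have several probe sets each, and these shares were not tested against the background. The median log2 change of the 14 was -0.44 with the shRNA and 0.29 with dnTcf4, against 0.01 and -0.02 over all probe sets. CDKN1C gave 5 of the 14 and CDKN2A 3, so these medians weigh those genes most.

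**Figure D1:**
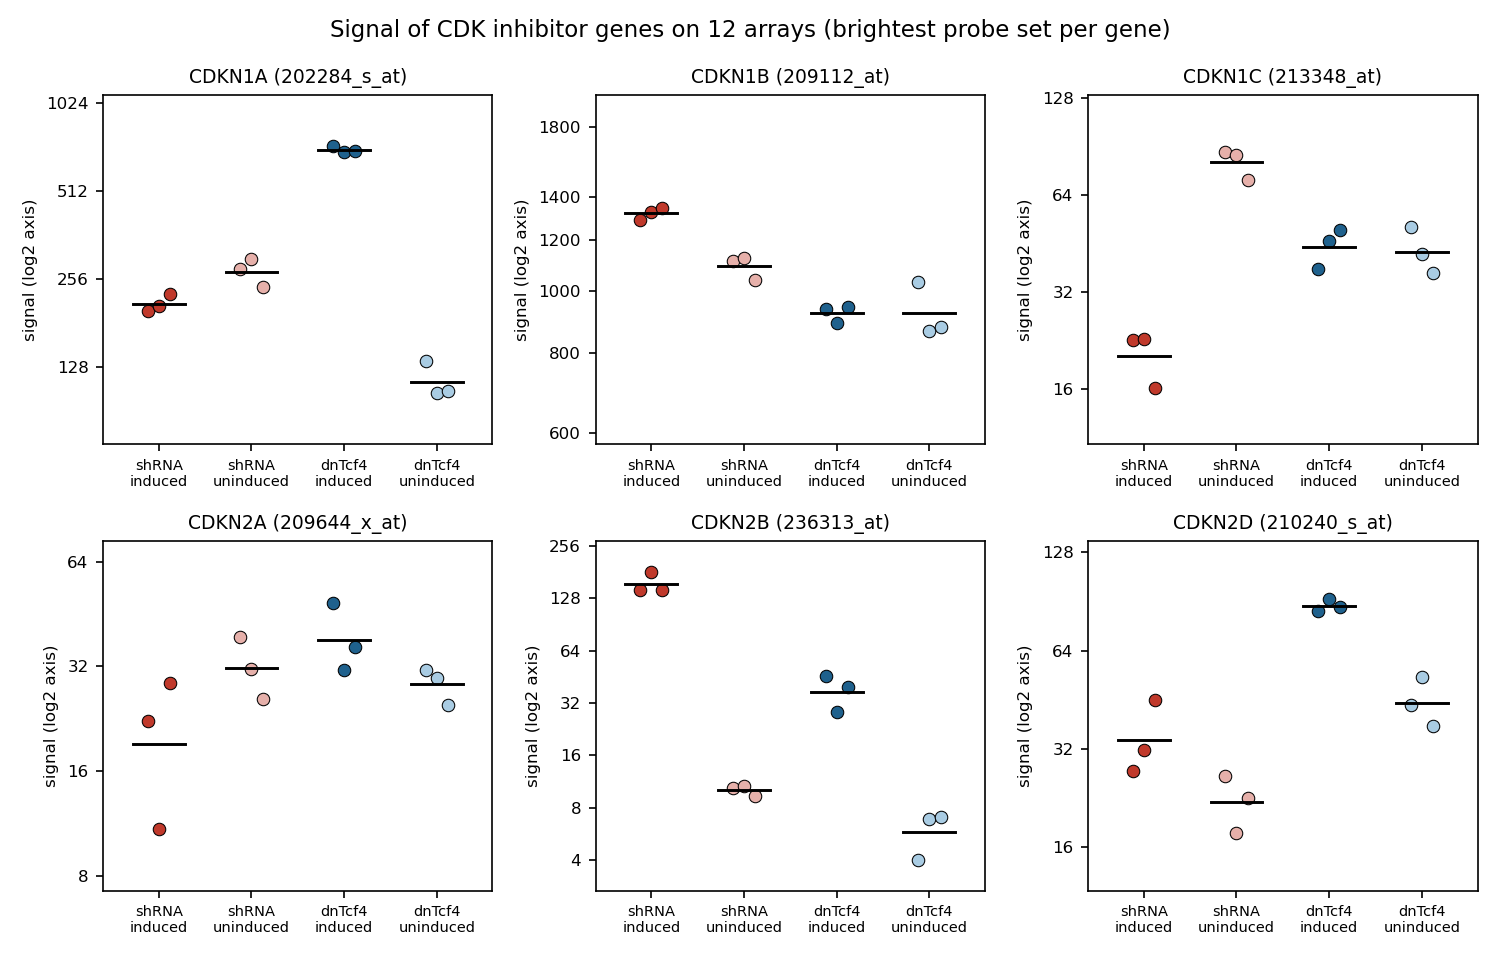
Signal (log2 axis, arbitrary units) of the brightest probe set of each CDK inhibitor gene. Points are arrays, bars are group means of log2 signal, and the groups run from induced shRNA, uninduced shRNA and induced dnTcf4 to uninduced dnTcf4. CDKN2B is higher in each induced group than in its uninduced one, CDKN1A is highest in induced dnTcf4 cells, and CDKN1C is lowest in induced shRNA cells.

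CDKN1A encodes p21, the CIP/KIP inhibitor induced by p53 among other factors. Its single probe set (202284_s_at) had signals of 198.8, 205.8 and 226.7 in induced shRNA cells, against 277.1, 298.2 and 239.1 in uninduced shRNA cells. The induced arrays were all under the uninduced ones, but the log2 change of -0.36 ± 0.12 did not pass the test (limma adjusted p = 0.0619). It passed without the third uninduced shRNA array, the lowest of its group (limma adjusted p = 0.0287), and without the first uninduced dnTcf4 array (0.0401). With dnTcf4 the signals were 729, 695 and 704 in induced cells, against 133.6, 103.9 and 105.2 in uninduced cells. Every induced array was far above every uninduced one. CDKN1A rose 6.25-fold with dnTcf4 (log2 change 2.64 ± 0.12 SE, limma adjusted p = 4.11e-10). The 2 changes differed by 3.01 ± 0.17 on the log2 scale, with the dnTcf4 change the higher (limma adjusted p = 1.18e-08 for the difference). The uninduced groups also differed, with uninduced dnTcf4 cells 2.38-fold lower than uninduced shRNA cells (log2 difference -1.25 ± 0.12, limma adjusted p = 1.16e-06). In order of level the groups were induced dnTcf4, uninduced shRNA, induced shRNA and uninduced dnTcf4, and no neighbouring ranges overlapped.

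CDKN1B encodes p27, an inhibitor whose amount is set largely by protein breakdown, which arrays do not read. Its probe set (209112_at) had signals of 1290.4, 1325.7 and 1348.3 in induced shRNA cells, against 1112.5, 1123.9 and 1041.6 in uninduced shRNA cells. The induced arrays were all higher, by 1.21-fold (log2 change 0.27 ± 0.08, limma adjusted p = 0.0434). This call is fragile: it was lost in 8 of the 12 fits that left out 1 array, at adjusted p up to 0.126, among them all 6 that left out a shRNA array. With dnTcf4 the signals were 935.9, 890.2 and 944.8 in induced cells, against 1032.7, 864.4 and 879.6 in uninduced cells. These ranges overlapped, and the log2 change was 0.00 ± 0.08 (limma adjusted p = 1). The difference of the changes, 0.27 ± 0.12, did not pass (limma adjusted p = 0.273).

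CDKN1C encodes p57, an imprinted CIP/KIP inhibitor of differentiating and quiescent cells. Its brightest probe set (213348_at) had signals of 22.7, 22.8 and 16.1 in induced shRNA cells, against 87.5, 85.6 and 71.2 in uninduced shRNA cells. The highest induced array lay far below the lowest uninduced one, and CDKN1C fell by 2.00 ± 0.24 on the log2 scale (limma adjusted p = 1.53e-05). With dnTcf4 the signals were 37.6, 46.1 and 49.7 in induced cells, against 50.9, 41.9 and 36.6 in uninduced cells. These ranges overlapped almost wholly, with a log2 change of 0.05 ± 0.24 (limma adjusted p = 0.959). The difference between the 2 changes was -2.05 ± 0.33, lower with the shRNA (limma adjusted p = 0.00136).

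CDKN1C had 4 other probe sets, and all had negative estimates with the shRNA. Probe set 219534_x_at had signals of 15.7, 19.3 and 23.7 in induced shRNA cells, against 50.2, 63.8 and 56.6 in uninduced shRNA cells. It fell by 1.55 ± 0.30 on the log2 scale (limma adjusted p = 0.00167), and the groups did not overlap. Probe set 213182_x_at had signals of 18.8, 23.6 and 14.1 in induced shRNA cells, against 37.4, 44.4 and 36 in uninduced shRNA cells. These groups did not overlap either, but the log2 change of -1.09 ± 0.34 did not pass (limma adjusted p = 0.0517). It passed without the second induced shRNA array (limma adjusted p = 0.0462) or the third induced dnTcf4 array (0.0413). Probe set 216894_x_at had overlapping ranges, 8.9 to 17.4 in induced and 17.4 to 42.7 in uninduced shRNA cells, and did not pass (-1.16 ± 0.48, limma adjusted p = 0.166). The fifth, 219533_at, was dim, at most 5.3 on any array, and did not pass (-0.86 ± 0.75, limma adjusted p = 0.6). With dnTcf4 0 of the 5 passed by limma (adjusted), and 0 lay under an unadjusted p of 0.05. Of these probe sets 3 carry the suffix _x_at, which Affymetrix gives to probes that may bind other transcripts too.

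**Figure D2:**
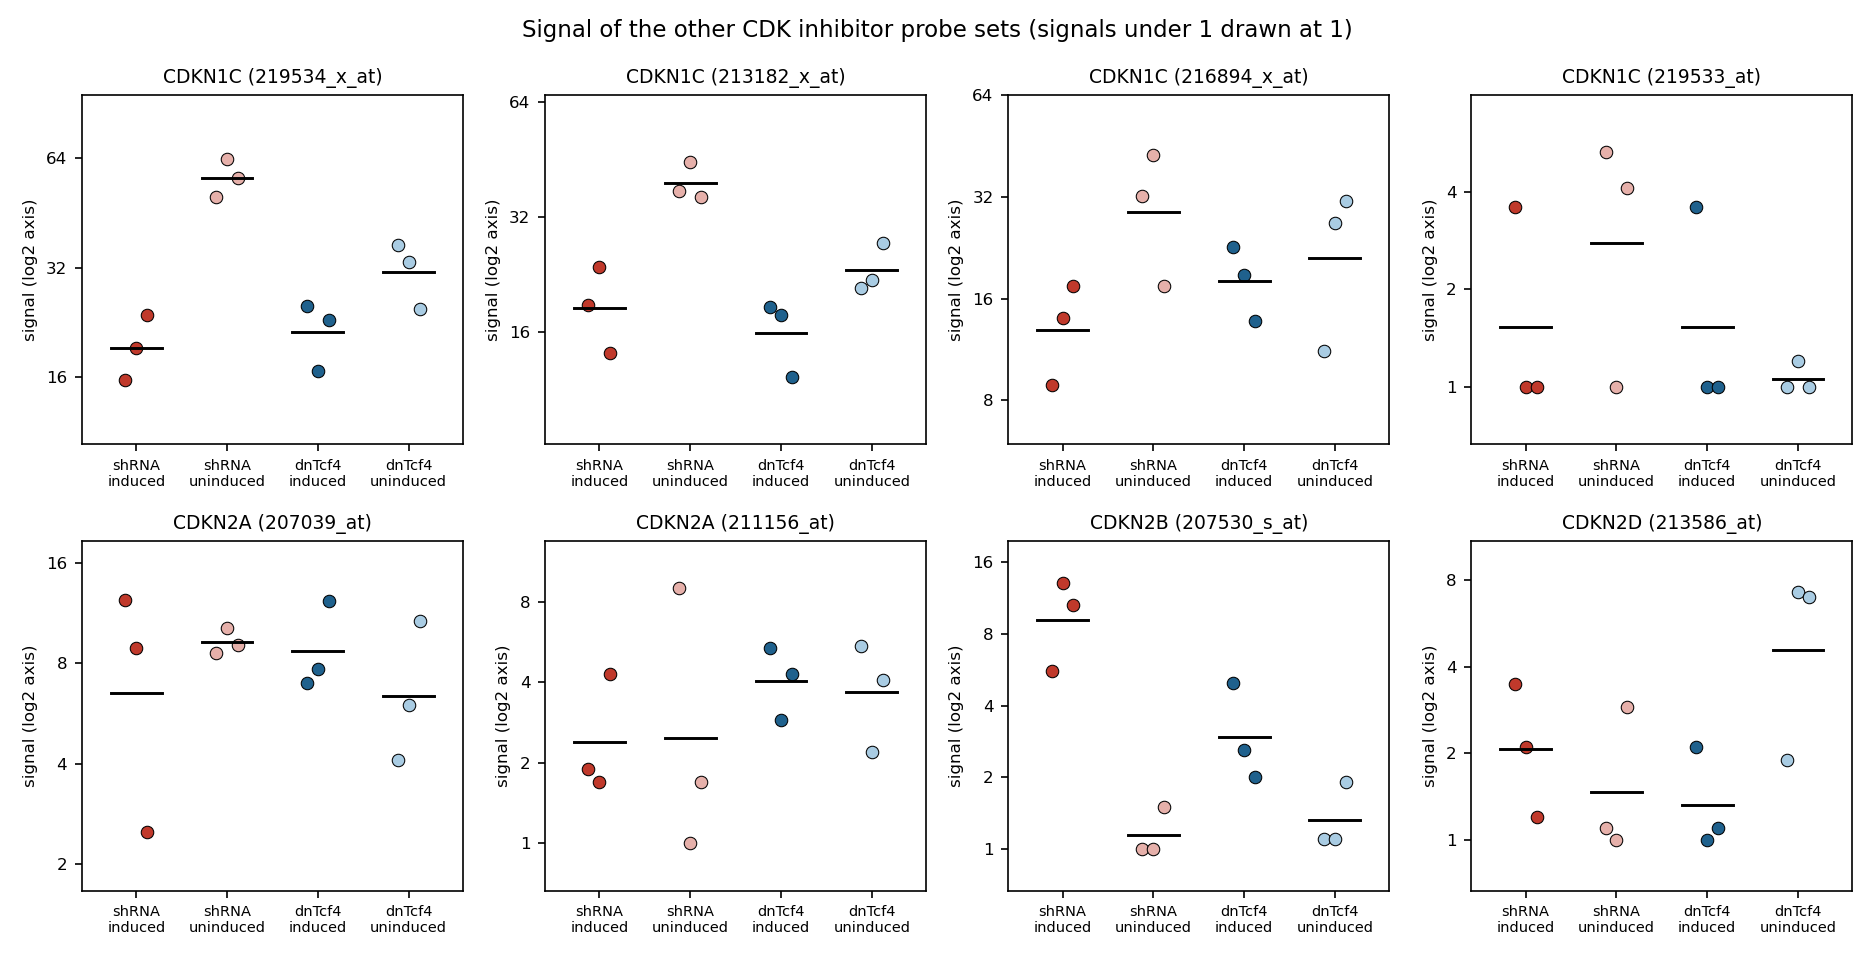
Signal (log2 axis, arbitrary units) of the probe sets that were not the brightest of their gene, by group and array. Points are arrays and bars are group means of log2 signal. The second CDKN2B probe set is higher in induced shRNA cells, and CDKN1C probe set 219534_x_at is lower there.

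CDKN2B encodes p15, an INK4 inhibitor known to be induced by TGF-β and repressed by MYC. Its brightest probe set (236313_at) had signals of 143.1, 181.8 and 142.7 in induced shRNA cells, against 10.4, 10.6 and 9.3 in uninduced shRNA cells. The uninduced values lay near the median signal of the array and the induced ones far above it. CDKN2B rose 15.4-fold with the shRNA (log2 change 3.94 ± 0.34, limma adjusted p = 4.45e-07). With dnTcf4 the signals were 45.5, 28.5 and 39.8 in induced cells, against 4.0, 6.9 and 7.1 in uninduced cells. The groups did not overlap, and CDKN2B rose 6.41-fold (log2 change 2.68 ± 0.34, limma adjusted p = 3.45e-05). Both folds rest on dim uninduced signals. With 3.5 added to all signals before the log the log2 changes were 3.54 and 2.12. The difference of the 2 changes, 1.26 ± 0.48, did not pass (limma adjusted p = 0.187), though it did with that offset (1.42, limma adjusted p = 0.0461).

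A second CDKN2B probe set (207530_s_at) was dim throughout. Its signals were 5.6, 13.1 and 10.6 in induced shRNA cells, against 0.6, 1.0 and 1.5 in uninduced shRNA cells. It too rose with the shRNA (log2 change 3.01 ± 0.67, limma adjusted p = 0.00578). The uninduced values lie at or near the floor of 1, so the size is not well set, and with the offset of 3.5 it was 1.51. With dnTcf4 it had 5.0, 2.6 and 2.0 in induced cells, against 1.1, 1.1 and 1.9 in uninduced cells. The induced values were all higher by a small margin, and the log2 change of 1.17 did not pass (limma adjusted p = 0.378).

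CDKN2A encodes both p16 and, from another reading frame, ARF, and these transcripts cannot be told apart here. Its brightest probe set (209644_x_at) had signals of 22.3, 10.9 and 28.7 in induced shRNA cells, against 38.9, 31.5 and 25.8 in uninduced shRNA cells. With dnTcf4 it had 48.8, 31.2 and 36.4 in induced cells, against 31.3, 29.6 and 24.8 in uninduced cells. The ranges overlapped in both lines, and neither log2 change passed (-0.73 ± 0.36, limma adjusted p = 0.261 with the shRNA, and 0.42 ± 0.36, limma adjusted p = 0.615 with dnTcf4). Its other probe sets were dim, with signals of at most 12.4 on any array for 207039_at and at most 9 for 211156_at. Neither passed with the shRNA (log2 changes -0.51 ± 0.73 and -0.05 ± 0.85) or with dnTcf4 (0.44 ± 0.73 and 0.15 ± 0.85, limma adjusted p at least 0.784 in each case). CDKN2B and CDKN2A share a chromosome 9 locus, and CDKN2B was called in both inductions while CDKN2A was called in neither. The difference between the genes was not tested.

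CDKN2D encodes p19, another INK4 inhibitor of CDK4 and CDK6. Its brightest probe set (210240_s_at) had signals of 27.4, 31.8 and 45.2 in induced shRNA cells, against 26.4, 17.7 and 22.7 in uninduced shRNA cells. The groups did not overlap, but the log2 change of 0.63 ± 0.25 did not pass (limma adjusted p = 0.141). With dnTcf4 the signals were 84.6, 92.2 and 86.8 in induced cells, against 43.7, 53.1 and 37.5 in uninduced cells. These did not overlap either, and CDKN2D rose 1.98-fold (log2 change 0.99 ± 0.25, limma adjusted p = 0.0143). The call was lost without the second induced dnTcf4 array (limma adjusted p = 0.0567) and without the third uninduced one (0.0719). The difference of the changes, -0.36 ± 0.35, did not pass (limma adjusted p = 0.735). Its second probe set, 213586_at, was dim, at most 7.3 on any array, and passed neither with the shRNA (0.49 ± 0.73, limma adjusted p = 0.795) nor with dnTcf4 (-1.80 ± 0.73, limma adjusted p = 0.153).

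**Figure D3:**
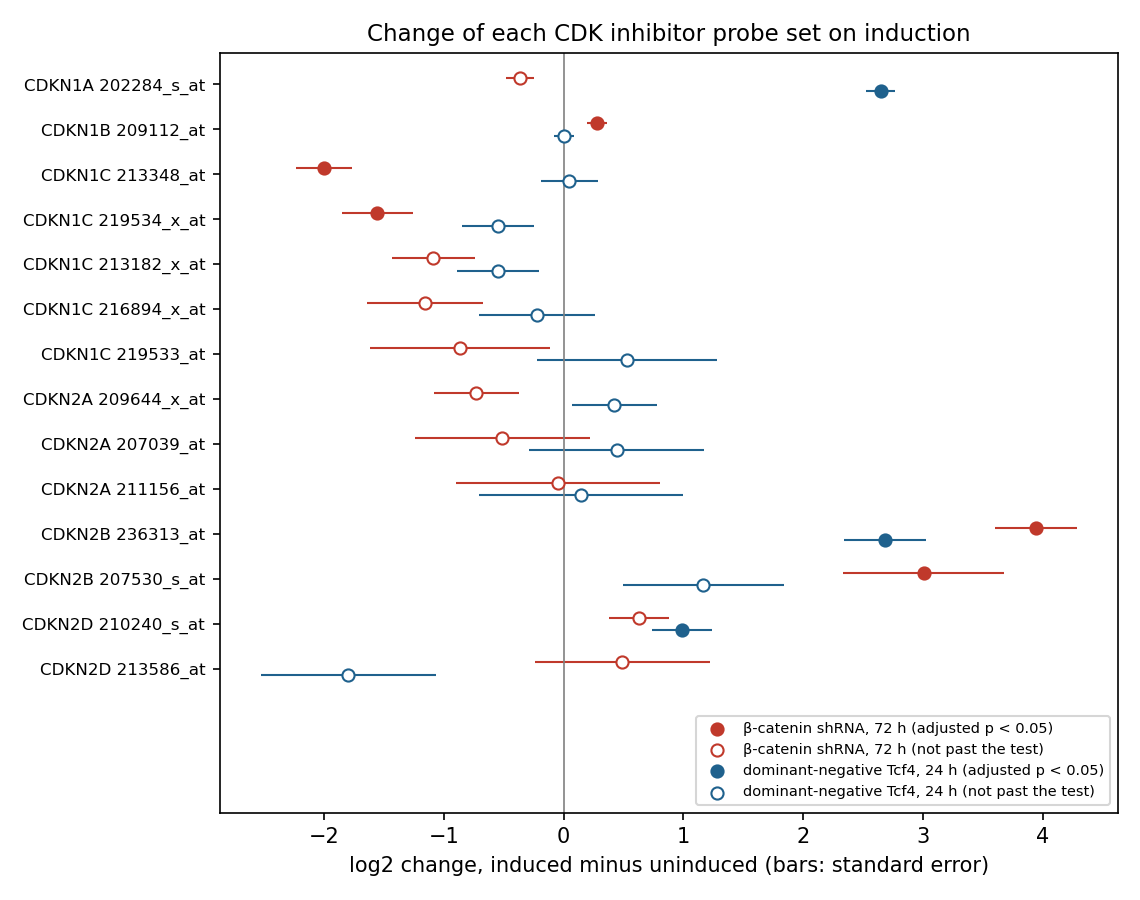
Log2 change on induction of all 14 CDK inhibitor probe sets, with red for the shRNA and blue for dnTcf4, and bars for the standard error. Filled points passed the test (adjusted p under 0.05) and open points did not. CDKN2B 236313_at lies far right in both colours and CDKN1A in blue, while CDKN1C 213348_at lies at -2 in red.

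Without induction the 2 derivatives differed in 3 of the 14 probe sets, against a background of 13.1% of all probe sets called. Their uninduced arrays are listed at 72 h (shRNA) and 24 h (dnTcf4), so derivative and hours cannot be told apart in this comparison. Uninduced dnTcf4 cells were higher than uninduced shRNA cells for CDKN2D 210240_s_at (2.02-fold, log2 difference 1.01 ± 0.25, limma adjusted p = 0.0109). They were lower for CDKN1A and for CDKN1C 213348_at (log2 difference -0.92 ± 0.24, limma adjusted p = 0.0132). The CDKN2D call was lost without the second uninduced dnTcf4 array (limma adjusted p = 0.062) or the second uninduced shRNA array (0.0544). The CDKN1C call was lost without the third uninduced dnTcf4 array (limma adjusted p = 0.0661) or the first or second uninduced shRNA array (0.06 and 0.0571). CDKN1B differed by -0.24 ± 0.08 and did not pass (limma adjusted p = 0.0698), but passed without the first uninduced dnTcf4 array (0.0241). CDKN2B 236313_at, at -0.80 ± 0.34, did not pass (limma adjusted p = 0.161). When the shRNA change was set against the dnTcf4 change, 2 of the 14 were called, CDKN1A and CDKN1C 213348_at, against 4.54% of all probe sets.

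In order of level, CDKN1B ran from induced shRNA through uninduced shRNA to the 2 dnTcf4 groups, which overlapped. CDKN1C 213348_at was highest in uninduced shRNA cells, then in the 2 dnTcf4 groups, which overlapped, and lowest in induced shRNA cells. CDKN2B 236313_at ran from induced shRNA through induced dnTcf4 and uninduced shRNA to uninduced dnTcf4 cells, with no overlap between neighbours. CDKN2D 210240_s_at ran from induced dnTcf4 through uninduced dnTcf4 and induced shRNA to uninduced shRNA cells, and its middle 2 groups overlapped. For CDKN2A 209644_x_at every pair of neighbouring groups overlapped.

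Genes whose signal ran most like each inhibitor over the 12 arrays are given as a description, since the arrays share their groups. CDKN2B ran most like SH3KBP1, SMIM14 and SLC25A20 (Pearson r = 0.992, 0.986 and 0.981, 12 arrays), and least like MCM3 (r = -0.991), a subunit of the replicative helicase. CDKN1A ran most like CALML4, CEBPG and ZBTB7B (r = 0.971, 0.968 and 0.957) and least like DPH2 (-0.945). CDKN1C ran most like RAB28, CTSV and NFIL3 (r = 0.945, 0.943 and 0.938) and least like IL1R2 (-0.957). CDKN2D ran most like ANXA11, LIMA1 and SLC35A1 (r = 0.972, 0.967 and 0.963) and least like ZBTB44 (-0.98), and CDKN1B most like FOXN3-AS1, IDUA and LCN2 (r = 0.978, 0.973 and 0.968) and least like TAF9B (-0.978).

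Most of the kinases and cyclins that the inhibitors bind fell in both inductions. Of 11 measured, 10 fell and 0 rose with the shRNA and 7 fell and 0 rose with dnTcf4 by limma (adjusted), and at an unadjusted p under 0.05 these counts were 11 and 0, and 10 and 0. They had median log2 changes of -0.88 and -0.59, against medians over all genes of 0.03 and -0.04. Over all genes 17.5% were called with the shRNA (8.47% higher, 9.08% lower) and 18.5% with dnTcf4 (8.41% higher, 10.1% lower). The genes measured on this list and on the E2F, proliferation, activator, repressor, turnover and p53 lists all lay at or above the median brightness. Of all probe sets that bright, 21.2% were called with the shRNA and 22% with dnTcf4. CCNA2, the S-phase cyclin, fell by 1.69 ± 0.09 with the shRNA, and CDK6, a direct target of the INK4 proteins, fell by 1.48 ± 0.16 with dnTcf4 (limma adjusted p = 2.16e-09 and 8.87e-06). CDK4 fell by 0.62 with the shRNA and by 0.92 with dnTcf4. The retinoblastoma family and E2F genes had 6 of 13 lower and 0 higher with the shRNA and 7 lower and 0 higher with dnTcf4 by limma (adjusted). At an unadjusted p under 0.05 these counts were 6 and 1, and 8 and 0, and the medians were -0.24 and -0.45. E2F7 fell by 1.68 with the shRNA and by 0.80 with dnTcf4.

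Of 14 proliferation genes, 14 fell with the shRNA and 13 with dnTcf4 by limma (adjusted), with median log2 changes of -1.48 and -0.73. MCM5, a helicase subunit, fell by 2.00 with the shRNA and by 1.14 with dnTcf4. Among the inhibitors only CDKN2B was called in both inductions, and the part of these proliferation genes in the inhibitors' changes was not tested.

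Genes known to act on the inhibitors moved in both directions. Of 16 activators of inhibitor genes, 3 rose and 3 fell with the shRNA and 6 rose and 1 fell with dnTcf4, with median log2 changes of -0.10 and 0.18. KLF4, a zinc-finger activator of CDKN1A, rose 2.48-fold with the shRNA and 5.08-fold with dnTcf4, and KLF6, another activator of CDKN1A, rose 4.89-fold and 3.99-fold (limma adjusted p at most 5.56e-07 for each). FOXO1, a forkhead factor, rose 3.49-fold with dnTcf4 (limma adjusted p = 4.75e-07) and had a log2 change of 0.23 with the shRNA (limma adjusted p = 0.452). Its 2 changes differed by 1.57 on the log2 scale, higher with dnTcf4 (limma adjusted p = 0.000284). ETS2, also on the activator list, fell by 1.55 with the shRNA and by 1.46 with dnTcf4 (limma adjusted p = 1.16e-08 and 3.29e-08).

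Of 12 repressors, 7 fell and 0 rose with the shRNA, and 4 fell and 1 rose with dnTcf4 by limma (adjusted), with medians of -0.55 and -0.41. At an unadjusted p under 0.05 the shRNA counts were 7 and 1. MYC fell by 0.99 ± 0.09 in both lines. ID1, an inhibitor of helix-loop-helix factors, fell by 2.37 with the shRNA and rose by 0.81 with dnTcf4. The dnTcf4 call was lost without the second induced dnTcf4 array (limma adjusted p = 0.0647) or the third uninduced one (0.0643). CBX7, a Polycomb protein, fell by 2.54 ± 0.75 with the shRNA (limma adjusted p = 0.0355), with signals of 45.6, 1.6 and 16.5 on the 3 induced shRNA arrays and 64.8, 67.2 and 54.7 on the 3 uninduced shRNA arrays. The call was lost in 8 of the 12 fits that left out 1 array, at adjusted p up to 0.114, and the log2 change was -1.18 without the second induced shRNA array and -3.59 without the first. Of 13 genes of inhibitor turnover, 1 rose and 5 fell with the shRNA, and 0 rose and 5 fell with dnTcf4 by limma (adjusted). At an unadjusted p under 0.05 the dnTcf4 counts were 0 and 8, and the medians were -0.16 and -0.32. DTL, the receptor that sends p21 for breakdown, fell by 2.45 with the shRNA and by 1.21 with dnTcf4, and SKP2, the receptor for p27, fell by 0.75 and by 0.69.

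**Figure D4:**
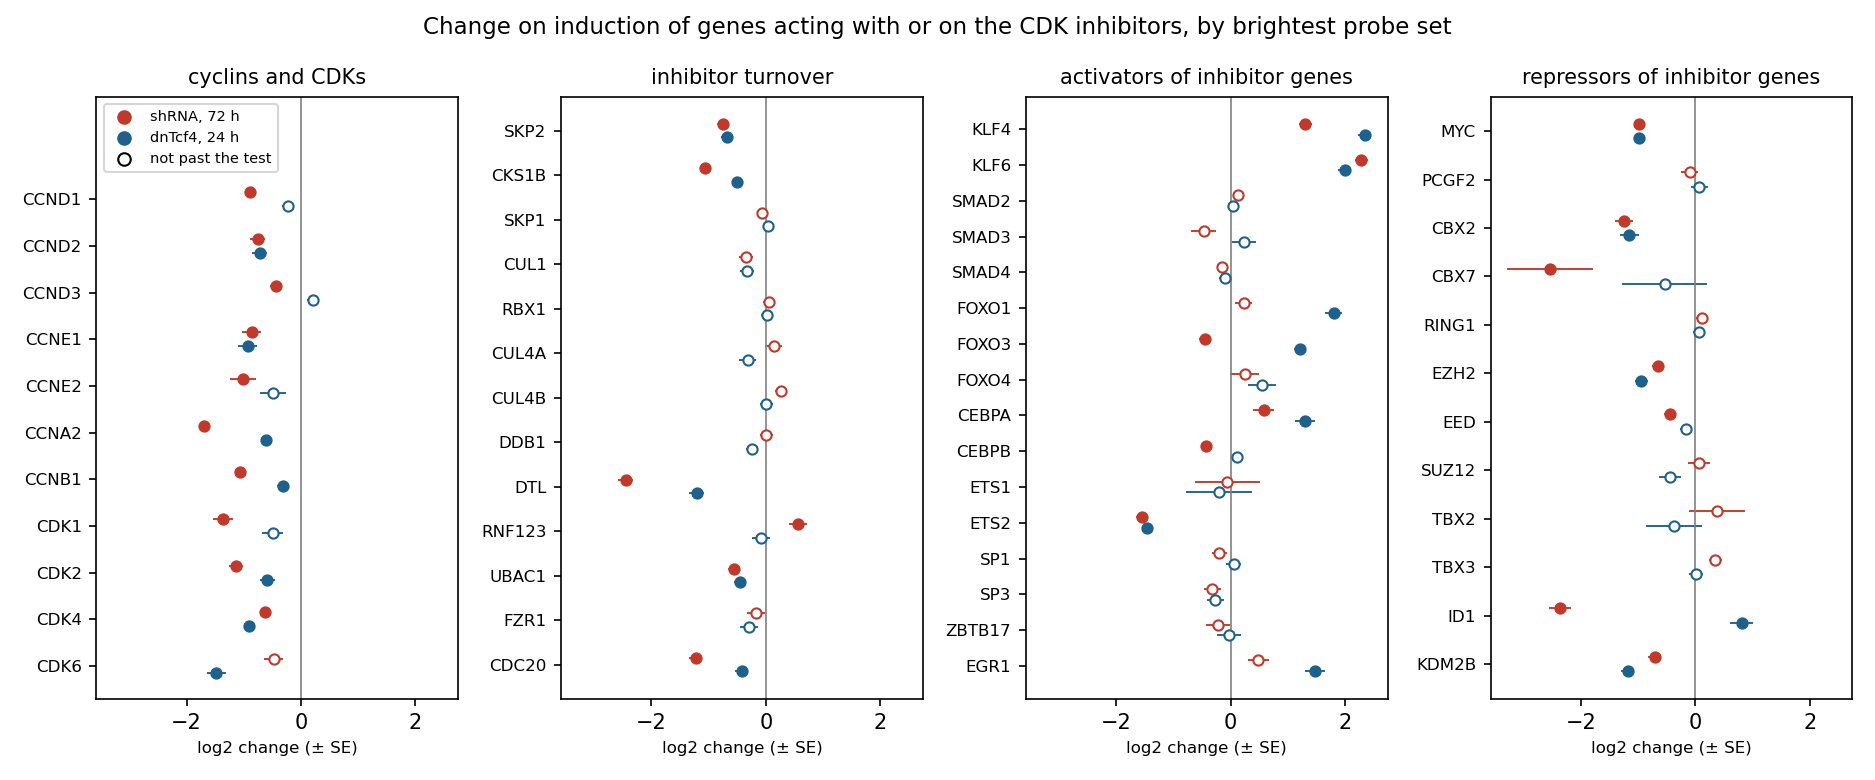
Log2 change on induction (x axis, with standard error bars) of cyclins and CDKs, genes of inhibitor turnover, activators and repressors of the inhibitor genes, with red for the shRNA and blue for dnTcf4. Filled points passed the test and open points did not. Cyclins and CDKs lie left of 0 in most cases, and KLF4, KLF6 and FOXO1 lie right of 0 with dnTcf4, as does FOXO3, which lies left of 0 with the shRNA. ETS2 lies left of 0 in both colours.

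CDKN1A is a target of p53, so other p53 targets were counted beside it. Of 17 measured, 4 rose and 3 fell with the shRNA and 3 rose and 2 fell with dnTcf4, and the medians were 0.07 and 0.11. GADD45A, a growth-arrest gene, rose 2.43-fold with dnTcf4 (limma adjusted p = 2.84e-06) and had a log2 change of 0.11 with the shRNA, while TP53I3 rose in both, by 1.01 and 1.59. TNFRSF10B fell by 0.75 with the shRNA (limma adjusted p = 3.97e-05) and had a log2 change of 0.18 with dnTcf4 (0.309). CCNG1, picked after its values were seen, rose by 0.33 with the shRNA and fell by 0.50 with dnTcf4. SESN1, picked likewise, fell by 0.52 and by 0.59 (limma adjusted p = 0.0341 and 0.0154). When the shRNA change was set against the dnTcf4 change, 3 of the 17 were called by limma, 1 higher and 2 lower, against 7.61% of all genes. Of 9 genes beside the CDKN2A-CDKN2B and CDKN1C loci, 1 rose and 2 fell with the shRNA and 1 rose and 1 fell with dnTcf4. KCNQ1, beside CDKN1C, fell by 0.71 with the shRNA, and PHLDA2, an imprinted gene of that region, rose by 0.56 with the shRNA and by 0.72 with dnTcf4.

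Markers of the tissue and of other cells were read beside these results. Of 10 colorectal epithelial markers 5 rose and 0 fell in each line by limma (adjusted), and at an unadjusted p under 0.05 the counts were 7 and 0 with the shRNA and 5 and 0 with dnTcf4. KRT19, a keratin, rose by 2.61 on the log2 scale with the shRNA and by 1.58 with dnTcf4, and LGALS4, a galectin of the gut, by 2.40 and by 2.29. Of 8 fibroblast markers 1 rose in each line, LUM. The summed signal of the fibroblast list ran from 108.4 to 178.9 in induced shRNA cells, against 105.1 to 123 in uninduced shRNA cells, and from 196.1 to 220.8 in induced dnTcf4 cells, against 122.7 to 153.6 in uninduced dnTcf4 cells. The LUM call with the shRNA was lost without the first induced shRNA array (limma adjusted p = 0.0587). Of 7 leukocyte markers 0 were called in either line by limma (adjusted), and 2 with the shRNA and 0 with dnTcf4 lay under an unadjusted p of 0.05. Their summed signal ran from 122.8 to 145 in induced shRNA cells, against 86.7 to 105.6 in uninduced shRNA cells, and from 43.7 to 72.3 in induced dnTcf4 cells, against 64.2 to 96.8 in uninduced dnTcf4 cells. PTPRC, the common leukocyte antigen, and CD14 had mean signals of at most 6.3 in every group. The part of these markers in the inhibitors' changes was not tested.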

How the data were processed

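RNA of 12 Ls174T samples was measured on Affymetrix arrays. The deposited table gives 1 intensity (signal) per probe set and array, on a linear scale. MAS5 and GCOS were used, per the submitters' processing notes, with versions and settings not given in the sources used. There are no detection calls, and array number limits the precision. Of 54675 probe sets, 62 were Affymetrix controls and left out, 41097 had 1 gene symbol, 1801 several and 11777 none.

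Each signal was raised to at least 1 and put on the log2 scale. A model with 4 group means was fitted to the other 54613 probe sets with limma 3.58.1 in R 4.3.3, with a variance trend (8 residual degrees of freedom). Contrasts were induced minus uninduced in each line, the shRNA change minus the dnTcf4 change, and uninduced dnTcf4 minus uninduced shRNA cells. Two-sided p-values were adjusted over all probe sets per contrast by Benjamini-Hochberg, and a call is an adjusted p under 0.05. No filter was applied. The procedure was tested on simulated data. Of changes of 2-fold, 41% were recovered in the shRNA contrast and 49% in the dnTcf4 contrast, and of 4-fold changes 71% and 64%. False calls were 5 of 117 and 5 of 118. A change that did not pass may therefore still be present. Each gene was represented by its brightest probe set (mean log2 signal).

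Named by rule were all member probe sets and, for called members, the 3 most and the 1 least correlated genes. For each list and induction the rule took the 3 called genes with the largest change. Not all list genes it took are named in the text, and some genes outside it are. The correlations used 12385 other genes at or above the median brightness. Of 142 entries in 11 gene lists, 130 paired with a probe set, and the rest were not analysed here. Members and lists were chosen with earlier results of these data known.

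No pairing by replicate number was seen. Deviations of same-numbered arrays correlated at -0.0343 to 0.0619, and those of differently numbered arrays at -0.0398 to 0.0661. With 3 arrays per group a weak pairing could go unseen. Alternatives were quantile normalization, centring, an offset of 3.5 before log2, a brightness filter, 1 probe set per gene, no variance trend, array weights, only the arrays compared, the replicate block, leaving out probe sets of less specific design, and leaving out each array. Promoters were read from a RefSeq table.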

Additional observations from a re-analysis of the deposited data

Results flagged for a closer look

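The change on induction differed between the lines for the probe sets below, by limma's test of the difference (adjusted p under 0.05 over all probe sets). Differences are the shRNA change minus the dnTcf4 change on the log2 scale, so a positive value means a higher change with the shRNA. Derivative, construct and hours of induction differ together between the lines and cannot be told apart.

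Among the inhibitors the difference was -3.01 for CDKN1A and -2.05 for CDKN1C 213348_at. Among probe sets of the shRNA's target and of the gene for Tcf4 it was -4.78 for CTNNB1 201533_at, -4.26 for CTNNB1 1554411_at, -3.04 for TCF7L2 212759_s_at and -2.29 for TCF7L2 212762_s_at.

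Of the 130 measured genes on the lists, 36 passed, 29 with a lower and 7 with a higher change with the shRNA, against 7.61% of all genes. Genes named for a course like or unlike that of an inhibitor are not listed as such, because their pattern chose them. The next paragraph gives the 18 that were named by rule, and the last paragraph the other 18, which were picked after their values were seen.

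Among cyclins, kinases and E2F genes it was -1.08 for CCNA2, 1.01 for CDK6, -1.03 for E2F2, 1.15 for E2F5 and -0.88 for E2F7. Among genes of inhibitor turnover it was -0.55 for CKS1B, -1.24 for DTL and -0.81 for CDC20. Among activators and repressors of inhibitor genes it was -1.04 for KLF4, -1.57 for FOXO1 and -3.18 for ID1. Among p53 targets it was -1.17 for GADD45A and -0.93 for TNFRSF10B. Among proliferation genes it was -0.86 for MCM5, -0.71 for MCM7 and -0.73 for TYMS. Among epithelial markers it was 1.03 for KRT19 and 0.93 for CEACAM5. Without a variance trend 15 of these 18 calls were lost, and those of CCNA2, FOXO1 and ID1 held. The CEACAM5 call was also lost in 9 of the 12 fits that left out 1 array (limma adjusted p up to 0.0996) and with centring (0.0579). That of E2F5 was lost in 4 of those fits (up to 0.0622), that of CDK6 in 3 (up to 0.061), and that of CKS1B with centring (0.0755).

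Of the other 18, MCM3 alone was refitted under the alternatives, and its call was lost in 9 of the 12 fits that left out 1 array (limma adjusted p up to 0.103). The MCM3 call was also lost with quantile normalization (limma adjusted p = 0.0688), centring (0.0647), no variance trend (0.339) and the replicate block (0.0756). Among cyclins and pocket-protein partners the difference was -0.65 for CCND1, -0.64 for CCND3, -0.74 for CCNB1 and 0.65 for TFDP2. Among activators it was -1.65 for FOXO3, -0.55 for CEBPB and -0.99 for EGR1. FOXO3 fell by 0.44 with the shRNA and rose by 1.21 with dnTcf4. CCNG1, a p53 target, went the other way from GADD45A and TNFRSF10B, at 0.83, and rose by 0.33 with the shRNA and fell by 0.50 with dnTcf4. Among proliferation genes it was -1.07 for MKI67, -0.71 for PCNA, -0.48 for MCM3, -1.07 for TOP2A, -0.85 for PLK1, -0.67 for AURKA, -0.82 for BUB1 and -0.76 for RRM2. Among epithelial markers it was 1.03 for KRT8 and -0.66 for VIL1.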

How the results depend on the processing

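No result changed direction past the threshold under any alternative run. Among the inhibitors, CDKN2B 236313_at in both inductions, CDKN1A with dnTcf4 and CDKN1C 213348_at and 219534_x_at with the shRNA were called under each one that tested them. With the brightness filter 4 member probe sets were lower with the shRNA and 4 between the uninduced lines, in place of 2 and 2, where fewer probe sets are tested. The added calls were CDKN1A and CDKN1C 213182_x_at with the shRNA, and CDKN1B and CDKN1C 219534_x_at between the lines. With the offset 1 was higher in the difference of the changes, in place of 0 (CDKN2B 236313_at). Leaving out 1 array gave 2 to 3 higher and 2 to 3 lower with the shRNA, 2 to 3 higher and 0 to 0 lower with dnTcf4, 0 to 0 higher and 2 to 2 lower for the difference, and 0 to 1 higher and 1 to 3 lower between the uninduced lines, with 0 higher without the second uninduced array of either line. The CDKN1B call with the shRNA was lost under quantile normalization (adjusted p = 0.0514), centring (0.308), no variance trend (0.301), array weights (0.0642), only the arrays compared (0.0575) and the replicate block (0.0823), and the block changed no other call of a member. CDKN1A with the shRNA was called with the filter (0.0412) and with 1 probe set per gene (0.0296), and CDKN1C 213182_x_at passed under 5 alternatives, at adjusted p down to 0.0167. CBX7 with the shRNA was lost in 2, at adjusted p up to 0.201.

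Without a variance trend 3464, 3209, 577 and 4326 probe sets were called with the shRNA, with dnTcf4, for the difference and between the uninduced lines, in place of 6058, 6223, 2480 and 7181, and with 1 probe set per gene 4625 were called between the uninduced lines. Centring moved the median log2 difference of all probe sets between the uninduced lines by 0.11. The difference of the changes has no value in fits of only the arrays compared.

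Leaving out probe sets ending in _x_at or _s_at left fewer genes measured and lowered several list counts. With the shRNA turnover had 0 higher and 1 lower, repressors 2 lower, p53 targets 2 higher, locus neighbours 0 higher and 1 lower, epithelial markers 3 higher and fibroblast markers 0 higher. With dnTcf4 cyclins and CDKs had 4 lower, turnover 0 lower, activators 3 higher, repressors 0 higher and 1 lower, p53 targets 1 lower, locus neighbours 0 higher and fibroblast markers 0 higher. Centring gave 0 higher for turnover and 2 higher for p53 targets with the shRNA. Dim probe sets, such as CDKN2B 207530_s_at and those of CDKN2A, have wide errors that limit what 3 arrays can show.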
